A study of Homo sapiens with 80 samples.

Results

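SPP1, LBP, FGG and CHI3L1 encode secreted proteins, and they are the 4 genes followed here among the 58735 genes of the RNA-seq tables of an anaplastic large cell lymphoma study. They were chosen by name because their RNA was high after lenalidomide in the drug experiment, so the counts of lenalidomide against DMSO are given as a description, with no test. Their behaviour in nascent transcription, after ZFP91 knockout and with a CSNK2B vector was measured in other libraries and was tested. Each gene has 1 entry in the drug table (17463 genes) and in the 3 RNA-seq tables. SPP1, FGG and CHI3L1 have 1 entry in the nascent transcription table (17792 genes), and LBP was not analysed there.

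The cells were SU-DHL-1, an ALK-positive anaplastic large cell lymphoma line derived from a lymph node, and KI-JK, a second ALK-positive line from a pleural effusion. Regrown cells are 3 independent SU-DHL-1 pools that had become resistant in long culture with rising lenalidomide and were then kept off the drug for months, and parental cells are the SU-DHL-1 cells they came from. The 80 samples of the series include 42 with counts, in 14 groups of 3, and the other 38 were not analysed here. In the drug experiment, regrown and parental cells received 2.5 µM lenalidomide or DMSO for 18 h, and RNA was read by 3′ digital gene expression (DGE), which counts reads from the 3′ end of transcripts. Precision run-on sequencing (PRO-seq), which counts RNA still being transcribed, compared regrown with parental cells. RNA-seq was done in regrown and parental cells carrying Cas9 and an inducible guide against ZFP91: knockout groups had 1 µg/ml doxycycline for 96 h, and their controls had no doxycycline, so the guide and the antibiotic cannot be told apart. RNA-seq was also done in KI-JK and SU-DHL-1 cells transduced with a CSNK2B overexpression vector or an empty vector. Parental and vector replicates are not stated to be separate cultures, so their p-values measure the spread between samples, which may be technical.

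Lenalidomide binds cereblon, the substrate receptor of a ubiquitin ligase, and turns zinc finger proteins such as IKZF1 and ZFP91 into substrates for degradation. CSNK2B is the regulatory subunit of casein kinase 2. SPP1 encodes osteopontin, a phosphoprotein of bone matrix that activated T cells and macrophages also secrete and that binds integrins and CD44. LBP encodes lipopolysaccharide-binding protein, an acute phase protein of the liver that hands bacterial lipopolysaccharide to CD14 and the TLR4 receptor. FGG encodes the gamma chain of fibrinogen, which hepatocytes assemble with the FGA and FGB chains and which interleukin-6 raises in the acute phase response. CHI3L1 encodes a chitinase-like glycoprotein without chitinase activity that macrophages, neutrophils and many tumours secrete.

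SPP1 (ENSG00000118785) lies at chr4:87975714-87983411, FGG (ENSG00000171557) at chr4:154604136-154612656, CHI3L1 (ENSG00000133048) at chr1:203178931-203186704 and LBP (ENSG00000129988) at chr20:38346482-38377013 in GRCh38, and all are protein coding. SPP1 and FGG lie on the same chromosome. The 250 bases before the annotated start (RefSeq, GRCh38.p14, 3 of the 4 genes matched by symbol) are shown because the genes were all high under the drug and then went different ways with regrowth. The windows are chr4:87975464-87975713 on the plus strand for SPP1, chr4:154612657-154612906 on the minus strand for FGG and chr1:203186705-203186954 on the minus strand for CHI3L1, each read 5′ to 3′ along its gene. Capitals mark TGGGAA, a core that Ikaros family proteins bind (in CHI3L1 it stands on the other strand, as TTCCCA), and the TATA box letters TATAAA.
SPP1: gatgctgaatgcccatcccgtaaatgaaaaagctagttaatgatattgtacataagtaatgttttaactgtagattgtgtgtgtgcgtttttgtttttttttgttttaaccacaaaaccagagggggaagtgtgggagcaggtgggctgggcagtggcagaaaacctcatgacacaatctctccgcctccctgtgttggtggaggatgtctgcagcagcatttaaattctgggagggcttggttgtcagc
FGG: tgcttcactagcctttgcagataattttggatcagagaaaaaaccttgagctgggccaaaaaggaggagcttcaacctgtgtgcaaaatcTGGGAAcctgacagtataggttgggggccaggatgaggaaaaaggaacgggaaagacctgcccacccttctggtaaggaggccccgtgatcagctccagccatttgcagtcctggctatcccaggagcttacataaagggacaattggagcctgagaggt
CHI3L1: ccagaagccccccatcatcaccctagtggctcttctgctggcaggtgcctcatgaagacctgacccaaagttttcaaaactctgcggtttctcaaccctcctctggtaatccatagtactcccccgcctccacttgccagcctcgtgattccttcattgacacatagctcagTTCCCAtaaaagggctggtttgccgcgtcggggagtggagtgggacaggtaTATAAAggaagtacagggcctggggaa
The 3 windows held 44.8%, 50.8% and 54% G and C for SPP1, FGG and CHI3L1, against a median of 58% over 35114 promoters of the same length. Counting the base before the start as -1, the Ikaros core stood at -160 to -155 in FGG and at -78 to -73 in CHI3L1, and SPP1 had none; 20.8% of all promoters held it on either strand. TATAAA stood in CHI3L1 at -27 to -22, as in 10.7% of all promoters. The E-box letters CANNTG stood at -112 to -107 in SPP1, at -60 to -55 and -19 to -14 in FGG, and at -209 to -204 and -120 to -115 in CHI3L1, and 61.8% of all promoters held them. No window held, on either strand, the letters searched for STAT (TTCNNNGAA, in 6.57% of all promoters), AP-1 (TGANTCA, 6.57%), ETS (CGGAAG, 16.5%), CRE (TGACGT, 7.10%), C/EBP (TTGCNNAA, 9.05%) or NF-kB (GGGANTTNC, 3.96%). None of the matches overlapped another. The 3 windows therefore shared none of these motifs except the E-box.

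Depth differed widely between the assays. Libraries held 41571 to 395827 counts in DGE, 33467869 to 47199672 counts in PRO-seq, 15387114 to 23052717 counts in the ZFP91 RNA-seq table, and 23073232 to 28927808 (KI-JK) and 14444523 to 24115731 counts (SU-DHL-1) in the vector RNA-seq tables. The smallest DGE library, parental lenalidomide replicate 3, stood apart from the rest in depth. Levels are CPM, a gene's count divided by the total of its library, on the usual scale. ALK and TNFRSF8 were detected in every group, and the summed T lineage and lymphoma markers ran from 2911 to 10087 CPM, with CD2 at 0 in 5 of the 6 SU-DHL-1 RNA-seq groups and CD4 at 0 in 3. Of the liver markers, SERPINA1 made up nearly all of the sum, while AHSG was at 0 in every SU-DHL-1 RNA-seq library. CSNK2B was 78.9 ± 2.29 CPM with the vector and 17.5 ± 1.45 CPM with the empty vector in KI-JK, and 251 ± 5.38 against 30.0 ± 0.65 CPM in SU-DHL-1 (SD, n = 3 each). ZFP91 RNA was 86.8 ± 12.8 CPM in regrown knockout and 91.4 ± 4.24 CPM in regrown controls (adjusted p = 0.394), and 88.0 ± 3.22 against 113.8 ± 4.44 CPM in parental cells (adjusted p = 0.158). A guide cut need not lower the RNA, so this checks little about the knockout.

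All 4 genes were low under DMSO and high under lenalidomide in parental cells. SPP1 had 253, 392 and 265 CPM in lenalidomide replicates 1 to 3, against 11.5, 8.64 and 2.99 CPM under DMSO. LBP had 197, 149 and 192 CPM under lenalidomide and no count in any DMSO library. The sum of 133 counts against 0 put LBP at least 59.1-fold higher, taking 3 counts over the DMSO group as the floor. FGG had 68.5, 58.1 and 72.2 CPM under lenalidomide, against 0, 0 and 11.9 CPM under DMSO, which is 49 counts against 4. CHI3L1 had 104, 65.7 and 72.2 CPM under lenalidomide, against 14.4, 17.3 and 2.99 CPM under DMSO. No lenalidomide library overlapped a DMSO library for any of the 4 genes, which 5.26% of genes showed in the higher direction. The fitted log2 differences were 5.33 ± 0.39 for SPP1, 3.95 ± 0.70 for FGG and 2.85 ± 0.48 for CHI3L1 (SE). That of LBP, 8.74 ± 0.68, is measured against 0 counts and is no bound. Without the smallest library, lenalidomide replicate 3, they were 5.39 for SPP1, 3.96 for FGG, 2.88 for CHI3L1 and 8.96 for LBP. Of the 5796 genes tested, 0.845% were called at an adjusted p under 0.05, 0.673% higher under the drug, and since these values chose the genes, nothing is read from the 4 being among them. The summed myeloid markers were 270 to 577 CPM under lenalidomide and 143 to 176 CPM under DMSO, mostly CD163 (401 against 136 CPM), with S100A8 at 0, and the summed liver markers 1316 to 1454 against 1272 to 1344 CPM; their part in these values was not tested. In bulk samples, more expressing cells and more RNA per cell cannot be told apart.

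The resistant regrown cells carried the same 4 genes high under lenalidomide, with lower levels of LBP and higher levels of CHI3L1. SPP1 had 98.2, 189 and 415 CPM in pools 1 to 3 under lenalidomide, against 2.79, 16.2 and 3.58 CPM in the same pools under DMSO. The drug to DMSO ratio of SPP1 within a pool was 35.3, 11.7 and 116. LBP had 57.3, 37.8 and 71.5 CPM under lenalidomide, against 0, 5.40 and 0 CPM under DMSO. Its 37 counts against 2 gave a ratio of 30.9, with a 95% exact counting interval of 7.97 to 264.5. FGG had 65.5, 37.8 and 40.0 CPM under lenalidomide, against 5.57, 2.70 and 0 CPM under DMSO, and its 27 counts against 3 gave a ratio of 15.0 (4.62 to 77.4). CHI3L1 had 622, 725 and 406 CPM under lenalidomide, against 203, 283 and 89.5 CPM under DMSO. Within the pools its ratio was 3.06, 2.56 and 4.54, so it was higher under the drug in every pool and started from a higher DMSO level. The fitted log2 differences were 4.94 ± 0.54 for SPP1, 4.60 ± 0.82 for LBP, 3.78 ± 0.81 for FGG and 1.58 ± 0.30 for CHI3L1, where 0.23% of 5661 genes were called. For none of the 4 did a lenalidomide pool overlap a DMSO pool, which 4.61% of genes showed in the higher direction. Myeloid markers summed to 74.4 to 136 CPM under lenalidomide and 50.1 to 103 CPM under DMSO, and liver markers to 1465 to 1981 against 1609 to 1841 CPM. Intervals on counts cover counting error only.

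**Figure D1:**
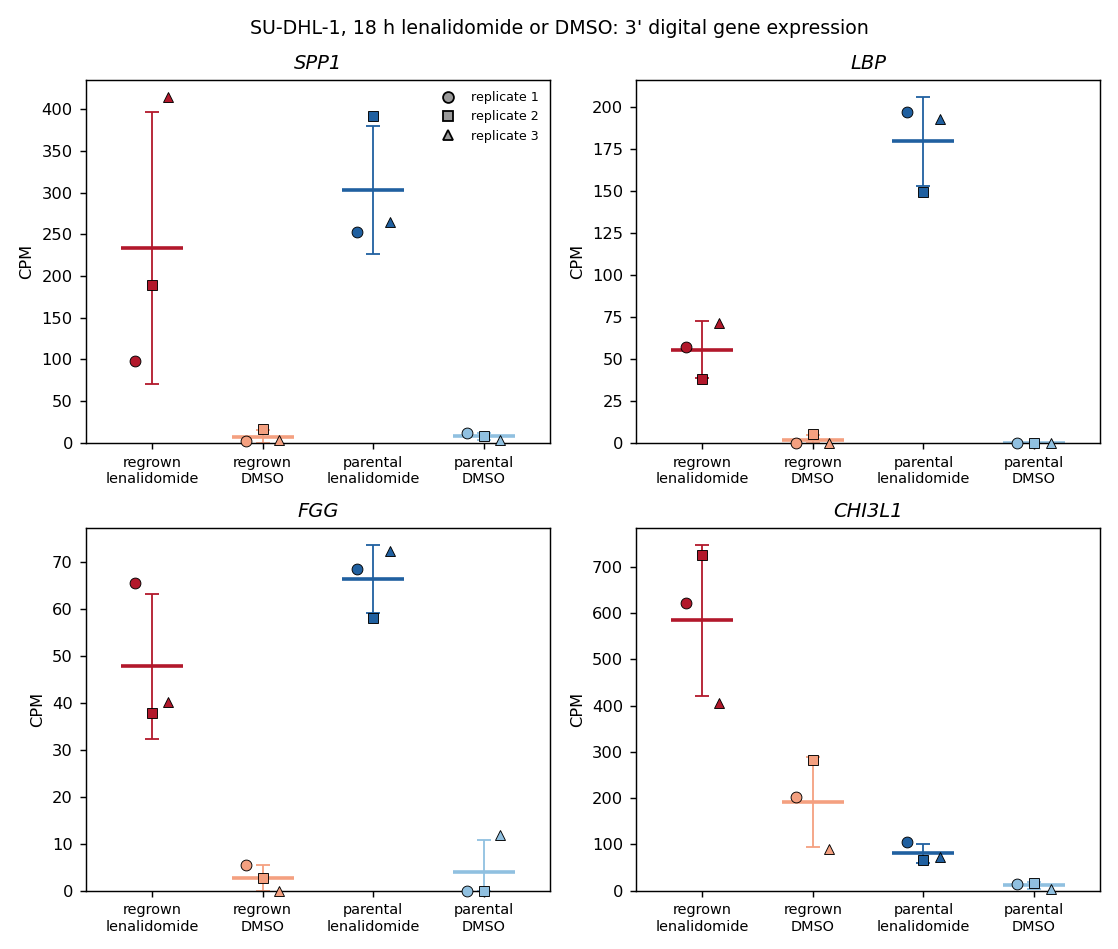
CPM (linear axes from 0) of the 4 genes in the 12 DGE libraries of regrown and parental SU-DHL-1 under lenalidomide or DMSO, with a symbol for each replicate, a line at the mean and bars of 1 SD drawn no lower than 0. Each gene is higher under lenalidomide than under DMSO in both backgrounds, and CHI3L1 is the gene whose regrown DMSO libraries, at 89.5 to 283 CPM, stand above the parental ones.

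The order of the 4 DGE groups by level was not the same for each gene. For SPP1, regrown lenalidomide (234 ± 163 CPM) and parental lenalidomide (303 ± 76.8 CPM) overlapped, and so did regrown DMSO (7.52 ± 7.52 CPM) and parental DMSO (7.71 ± 4.33 CPM; SD, n = 3 each). FGG showed the same order, with 47.8 ± 15.4 CPM in regrown and 66.3 ± 7.30 CPM in parental cells under the drug, whose ranges also overlapped. LBP under the drug was 55.5 ± 16.9 CPM in regrown and 179 ± 26.3 CPM in parental cells, without overlap (log2 difference -1.60 ± 0.38), as 8.71% of genes were in the lower direction. CHI3L1 under the drug was 584 ± 163 CPM in regrown and 80.7 ± 20.7 CPM in parental cells (2.74 ± 0.33), without overlap, as 10.9% of genes were in the higher direction, and under DMSO 192 ± 97.4 against 11.5 ± 7.56 CPM (4.02 ± 0.44). Called genes made up 2.78% of 4648 tested between regrown and parental cells under the drug and 6.21% of 5941 under DMSO. Regrown pools 1 and 2 under DMSO, at 203 and 283 CPM of CHI3L1, lay above every parental lenalidomide library, at 65.7 to 104 CPM, and pool 3 at 89.5 CPM lay within that range. SPP1, LBP and FGG had too few DMSO counts for a fit between the backgrounds (8 against 8, 2 against 0, and 3 against 4).

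The difference of the drug response between regrown and parental cells was -4.03 ± 1.77 on the log2 scale for LBP, -1.27 ± 0.61 for CHI3L1, -0.34 ± 0.96 for SPP1 and -0.16 ± 1.90 for FGG. None of 6838 genes (0%) was called in edgeR's test of this difference, 285 had an unadjusted p under 0.05, and DESeq2 called 0 as well. The LBP value rests on 2 counts in 1 library, regrown DMSO pool 2, without which both DMSO groups are at 0 and the fitted value is -1.59. The 95% interval was -7.51 to -0.56 for LBP, -2.46 to -0.086 for CHI3L1, -2.23 to 1.55 for SPP1 and -3.87 to 3.56 for FGG, so the size of the response is only loosely bounded.

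In PRO-seq regrown cells transcribed more CHI3L1 and FGG than parental cells, and both were also higher in RNA-seq without doxycycline. In PRO-seq, CHI3L1 had 60.4, 39.7 and 24.0 CPM in regrown pools 1 to 3, against 2.27, 4.40 and 4.62 CPM in parental replicates. The groups did not overlap, as for 22.5% of genes in the higher direction, and CHI3L1 rose 11.0-fold (log2 3.45 ± 0.36, adjusted p = 6.72e-05). FGG had 1.40, 4.05 and 0.169 CPM in regrown pools, against 0.129, 0.405 and 0.243 CPM in parental replicates. Pool 3 lay inside the parental range, and the rise of FGG (2.83 ± 0.90, adjusted p = 0.0354) was lost without parental replicate 1 (adjusted p = 0.112 in edgeR's test), 2 (0.0713) or 3 (0.126), or without regrown pool 2 (0.185). SPP1 had 1.79, 2.58 and 0.699 CPM in regrown pools, against 0.594, 0.984 and 1.27 CPM in parental replicates, with overlapping groups. Its log2 difference was 0.82 ± 0.46 (95% interval -0.079 to 1.71, adjusted p = 0.205), and 1.20 with an adjusted p of 0.0201 without pool 3. Pool 3 was the lowest of the regrown libraries for all 3 genes. Of the 3 measured genes 2 were called, both higher, at a background of 30.2% of 16456 genes called and 14% called higher.

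Per kilobase of gene, nascent CHI3L1 was 7.78, 5.11 and 3.08 CPM per kb in regrown and 0.292, 0.566 and 0.594 CPM per kb in parental cells. That is above both other genes in every library of its group. SPP1 was 0.233, 0.335 and 0.0908 CPM per kb in regrown and 0.0772, 0.128 and 0.165 CPM per kb in parental cells. FGG was 0.165, 0.475 and 0.0199 CPM per kb in regrown and 0.0152, 0.0475 and 0.0285 CPM per kb in parental cells, so SPP1 lay above FGG in parental cells and overlapped with it in regrown cells.

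**Figure D2:**
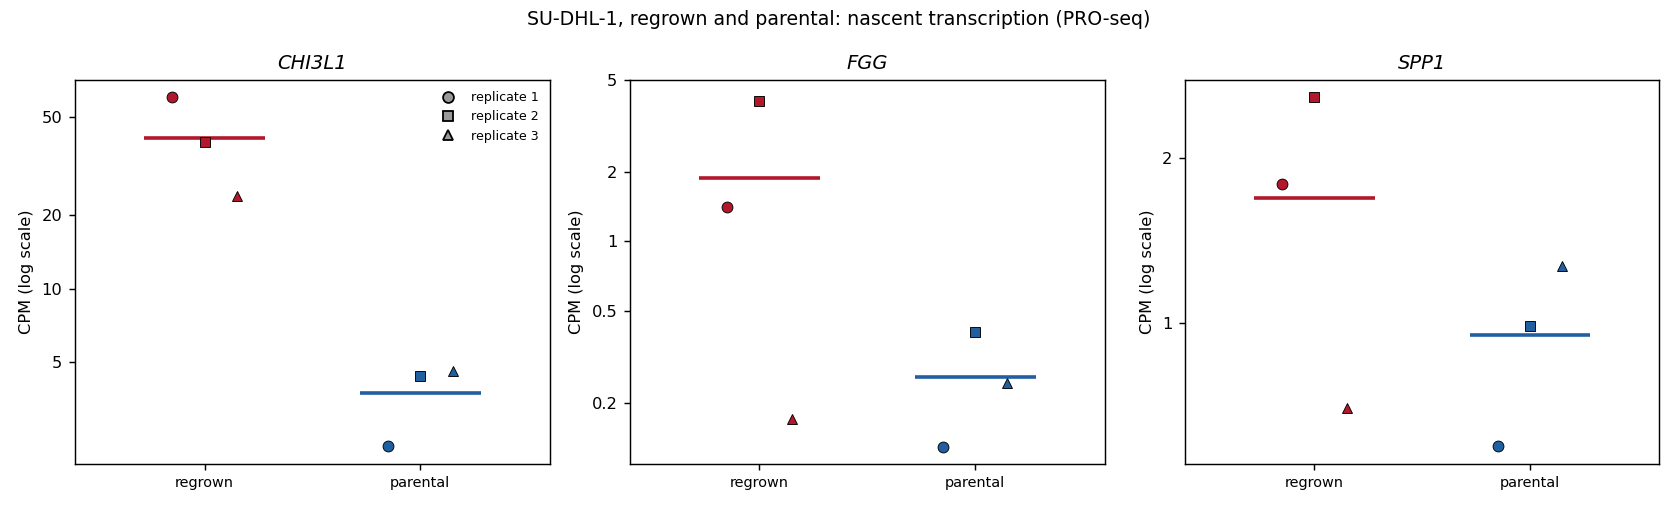
PRO-seq CPM (log axes) of CHI3L1, FGG and SPP1 in the 3 regrown pools and 3 parental replicates, with a line at the arithmetic mean. CHI3L1 separates the groups, at 24.0 to 60.4 CPM in regrown and 2.27 to 4.62 CPM in parental cells, while pool 3 brings FGG and SPP1 of the regrown cells into the parental range.

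In RNA-seq without doxycycline the 4 genes split into pairs: CHI3L1 and FGG rose in regrown cells, SPP1 fell, and LBP was nearly absent. CHI3L1 had 143, 186 and 136 CPM in regrown pools, against 45.3, 40.7 and 47.1 CPM in parental replicates, a 3.74-fold rise (log2 1.90 ± 0.12, adjusted p = 4.14e-08). FGG had 10.1, 11.4 and 7.72 CPM in regrown pools, against 0.691, 0.882 and 1.03 CPM in parental replicates, and rose 11.9-fold (3.57 ± 0.29, adjusted p = 2.92e-07). The DGE libraries under DMSO did not show that rise, on 3 FGG counts in regrown against 4 in parental cells. Their ratio was 0.766, with a 95% counting interval of 0.112 to 4.53 that covers counting error only. All 4 parental counts came from DMSO replicate 3, so the ratio rests on 1 library. SPP1 had 11.4, 7.00 and 11.0 CPM in regrown pools, against 21.4, 24.7 and 26.4 CPM in parental replicates. It fell by 1.20 on the log2 scale (SE 0.18, adjusted p = 1.03e-04), and the groups of none of these 3 genes overlapped, beside 21.9% of all genes without overlap in the higher and 32.5% in the lower direction. LBP had 0.0509, 0 and 0 CPM in regrown pools, against 0.403, 1.47 and 0.980 CPM in parental replicates. Its 1 count against 52 makes it 53.4-fold lower, with a 95% counting interval of 9.17 to 2150, and too few counts remained for the fit. These 3 calls stand beside a background of 43.7% of 13379 genes called, 22.6% higher and 21.1% lower.

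After ZFP91 knockout CHI3L1 and FGG were again higher and SPP1 lower in regrown than in parental cells. CHI3L1 had 246, 213 and 208 CPM in regrown knockout pools, against 31.0, 44.9 and 41.4 CPM in parental knockout replicates (2.50 ± 0.14, adjusted p = 3.12e-06). FGG had 14.4, 9.42 and 11.8 CPM in regrown knockout pools, against 0.975, 0.358 and 0.183 CPM in parental knockout replicates (4.65 ± 0.39, adjusted p = 2.75e-05). SPP1 had 6.51, 5.16 and 4.39 CPM in regrown knockout pools and 11.4, 14.5 and 13.2 CPM in parental knockout replicates (-1.29 ± 0.17, adjusted p = 3.72e-04). LBP had no count in the regrown knockout pools and 1.36, 0.818 and 0.458 CPM in parental knockout replicates, at least 17.6-fold lower. Called genes were 38.4% of 13444, 18.6% higher and 19.8% lower, and the libraries without doxycycline are other samples of the same pools.

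Of the 3 genes measured in both assays, only SPP1 had fitted values of opposite sign, 0.82 ± 0.46 in PRO-seq and -1.20 ± 0.18 in RNA-seq. Its PRO-seq value was not called (adjusted p = 0.205 in edgeR's test) and its interval includes 0. The direction of its nascent change is therefore not established, and the difference between assays was not tested. CSNK2B, whose vector is described next, was itself higher in regrown cells, at 32.3 against 7.74 CPM in parental cells in PRO-seq and 30.0 against 17.7 CPM in RNA-seq without doxycycline. The 10 myeloid markers summed to 25.8 to 31.5 CPM in regrown and 324 to 339 CPM in parental cells without doxycycline, a difference carried by CD163 alone, at 5.66 and 313 CPM. LYZ was at 0 in both groups, and S100A9 went the other way, with 15.7 CPM in regrown and 1.29 CPM in parental cells. The summed liver markers were 4766 to 5438 CPM in regrown and 3216 to 3655 CPM in parental cells, with SERPINA1 at 5086 and 3255 CPM, ALB at 3.69 and 10.0 CPM and AHSG at 0. The part of these marker changes in the results was not tested.

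SPP1 was lower in the ZFP91 knockout libraries in both backgrounds, and CHI3L1 was higher in those of regrown cells. In regrown cells SPP1 had 6.51, 5.16 and 4.39 CPM with the knockout, against 11.4, 7.00 and 11.0 CPM without doxycycline (-0.91 ± 0.22, adjusted p = 0.00816). The ratio within a pool was 0.570, 0.737 and 0.398, lower in 3 of 3 pools. CHI3L1 had 246, 213 and 208 CPM with the knockout, against 143, 186 and 136 CPM without doxycycline (0.48 ± 0.11, adjusted p = 0.00652), and the ratio was above 1 in 3 of 3 pools, at 1.72, 1.15 and 1.53. FGG was 11.9 ± 2.49 CPM with the knockout and 9.75 ± 1.87 CPM without doxycycline (0.25 ± 0.19, adjusted p = 0.358). LBP had 0 counts against 1 and was not tested. Neither SPP1 nor CHI3L1 overlapped between the groups. The background in regrown cells was 31.9% of 13107 genes called, 16.3% higher and 15.7% lower, with 27.9% without overlap in the higher and 19.9% in the lower direction. The libraries of these groups also differed in a length score, the slope of a library's log2 level on the log2 span of the gene: it was -0.0265, -0.0237 and -0.0111 with the knockout and 0.0383, 0.0183 and 0.0782 without doxycycline. With the score as a covariate SPP1 was -0.47 (adjusted p = 0.684) and CHI3L1 0.04 (0.949), and edgeR called 0 genes in that fit. The score did not overlap between the groups, so that fit cannot tell score and group apart, and nothing is concluded from the lost calls. Controls without doxycycline also differed between backgrounds, with scores of 0.00613, -0.00794 and -0.0366 in parental replicates, below every regrown control. The regrown against parental comparison without doxycycline, its gene lists included, carries the same limit. Alternative fits there, covariate included, gave 1.80 to 2.20 for CHI3L1, 3.47 to 4.15 for FGG and -1.37 to -1.20 for SPP1.

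Parental cells gave a background of 0.427% of 13354 genes called, 0.367% lower, with 10.1% without overlap in the lower direction. SPP1 had 11.4, 14.5 and 13.2 CPM with the knockout, against 21.4, 24.7 and 26.4 CPM without doxycycline, without overlap. It fell by 0.86 on the log2 scale (SE 0.13, adjusted p = 0.0365). That call was lost without control replicate 1 (adjusted p = 0.111), 2 (0.252) or 3 (0.188) or knockout replicate 3 (0.278), while the log2 value stayed between -0.94 and -0.78. CHI3L1 was 39.1 ± 7.24 CPM with the knockout and 44.4 ± 3.32 CPM without (-0.15 ± 0.14, adjusted p = 0.858). FGG was 0.505 ± 0.416 CPM with the knockout and 0.867 ± 0.170 CPM without (-0.82 ± 0.60, adjusted p = 0.800), and LBP 0.880 ± 0.456 against 0.951 ± 0.534 CPM (-0.11 ± 0.57, adjusted p = 0.987).

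The knockout response differed between regrown and parental cells by 0.62 ± 0.19 for CHI3L1 (adjusted p = 0.0521; 0.64 and 0.0287 with the pool or replicate number as a block), by -0.06 ± 0.26 for SPP1 (0.898) and by 1.10 ± 0.54 for FGG (0.186). With the length score as covariate the CHI3L1 value was 0.26 (adjusted p = 0.415). For LBP it was -1.86 ± 1.74 (adjusted p = 0.509). Here 9.81% of 14267 genes were called. The 95% interval of the SPP1 difference, -0.57 to 0.44, allows a moderate difference in either direction.

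**Figure D3:**
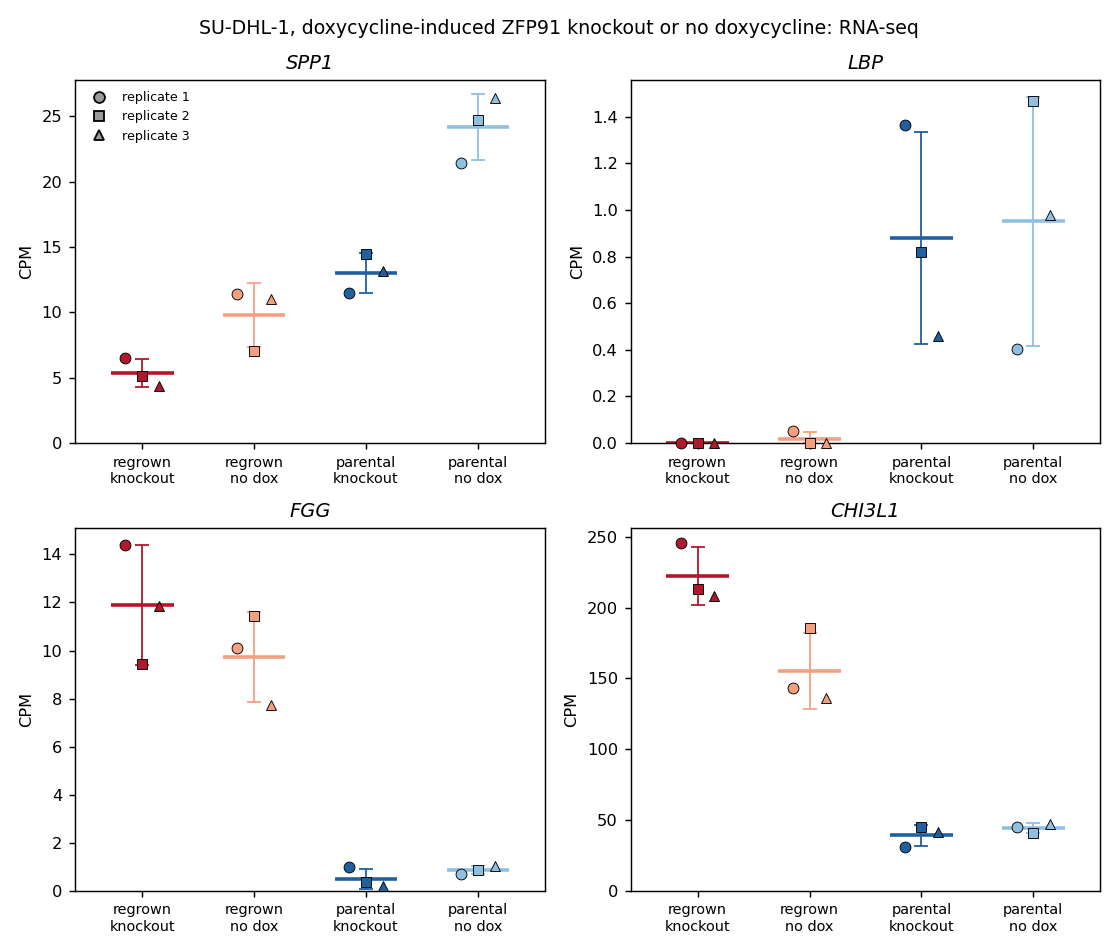
RNA-seq CPM (linear axes from 0) of the 4 genes in regrown and parental SU-DHL-1 with doxycycline-induced ZFP91 knockout or no doxycycline, with a symbol for each replicate, the mean and 1 SD drawn no lower than 0. SPP1 is lower with the knockout in both backgrounds (regrown 4.39 to 6.51 against 7.00 to 11.4 CPM), and LBP is at or near 0 in the regrown pools.

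The CSNK2B vector moved SPP1 in opposite directions in the 2 lines. In KI-JK, SPP1 had 8.23, 8.35 and 8.88 CPM with the vector, against 6.35, 5.31 and 7.09 CPM with the empty vector (0.46 ± 0.13, adjusted p = 0.00718; 0.36 and 0.0507 without empty vector replicate 2). LBP had 2.04, 2.63 and 2.14 CPM with the vector, against 0.635, 0.668 and 0.778 CPM with the empty vector. It rose 3.30-fold (1.72 ± 0.31, adjusted p = 1.19e-04), which placed it at rank 16 of the rises among 14104 genes. CHI3L1 had 0, 0.0417 and 1.52 CPM with the vector, against 0.466, 0.432 and 1.19 CPM with the empty vector. Its difference of -0.30 ± 0.76 (adjusted p = 0.794) turned on vector replicate 3, without which it was -4.71 (adjusted p = 0.000893). FGG had 3 counts with the vector and 1 with the empty vector, and FGB and FGA had none. SPP1 and LBP did not overlap between the vectors. The KI-JK background was 35.7% of genes called, 18.4% higher, with 20.5% without overlap in the higher direction.

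In SU-DHL-1 SPP1 was lower with the vector, and FGG was lower with a call that several alternative fits lost. SPP1 had 28.8, 27.6 and 27.8 CPM with the vector, against 42.6, 37.6 and 37.4 CPM with the empty vector (-0.50 ± 0.06, adjusted p = 6.43e-06). FGG had 1.40, 1.18 and 1.21 CPM with the vector, against 1.62, 3.12 and 2.63 CPM with the empty vector (-0.92 ± 0.27, adjusted p = 0.0409), on 73 counts against 128. The FGG call was lost in DESeq2 (adjusted p = 0.0684), with scaling by library size only (0.0524), and without empty vector replicate 2 (0.216) or 3 (0.121) or vector replicate 1 (0.0712), 2 (0.152) or 3 (0.0859). CHI3L1 had 30.6, 26.8 and 28.4 CPM with the vector, against 27.6, 30.3 and 28.4 CPM with the empty vector, with a 95% interval of the log2 difference of -0.14 to 0.12. LBP had 6.65, 5.37 and 6.91 CPM with the vector, against 6.51, 7.27 and 5.86 CPM with the empty vector (-0.05 ± 0.13, adjusted p = 0.885; 95% interval -0.32 to 0.21). The SU-DHL-1 background was 6.74% of 13727 genes called, 3.34% lower, with 10.7% without overlap in the lower direction, where SPP1 and FGG both stood.

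The difference of the vector response, KI-JK minus SU-DHL-1, was tested on the merged counts after the separate results had been seen, with 19.2% of 15564 genes called, 10.7% in the positive direction. It was 0.97 ± 0.13 for SPP1 (adjusted p = 3.28e-06) and 1.79 ± 0.29 for LBP (adjusted p = 4.17e-05). For FGG it was 2.20 ± 1.45 (adjusted p = 0.325), and for CHI3L1 -0.19 ± 0.59 (0.880), or -4.67 with an adjusted p of 0.000128 without KI-JK vector replicate 3. The vector raised CSNK2B to 78.9 CPM in KI-JK and 251 CPM in SU-DHL-1, so the level reached differed between the lines. Myeloid markers summed to 555 to 634 CPM with the vector and 512 to 543 CPM without it in KI-JK, and to 590 to 601 against 592 to 607 CPM in SU-DHL-1. Within that sum CD163 was 31.5 ± 1.6 CPM with the vector and 5.32 ± 0.66 CPM with the empty vector in KI-JK, without overlap, and 575 ± 3.79 against 577 ± 8.42 CPM in SU-DHL-1. Liver markers summed to 3297 to 3409 CPM with the vector and 3556 to 3639 CPM with the empty vector in KI-JK, where ALB was 130.8 ± 3.08 against 96.2 ± 4.09 CPM, and to 2955 to 3120 against 2591 to 2742 CPM in SU-DHL-1. HNF4A and TTR were at 0 in all 4 vector groups, and the part of these markers in the results was not tested.

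**Figure D4:**
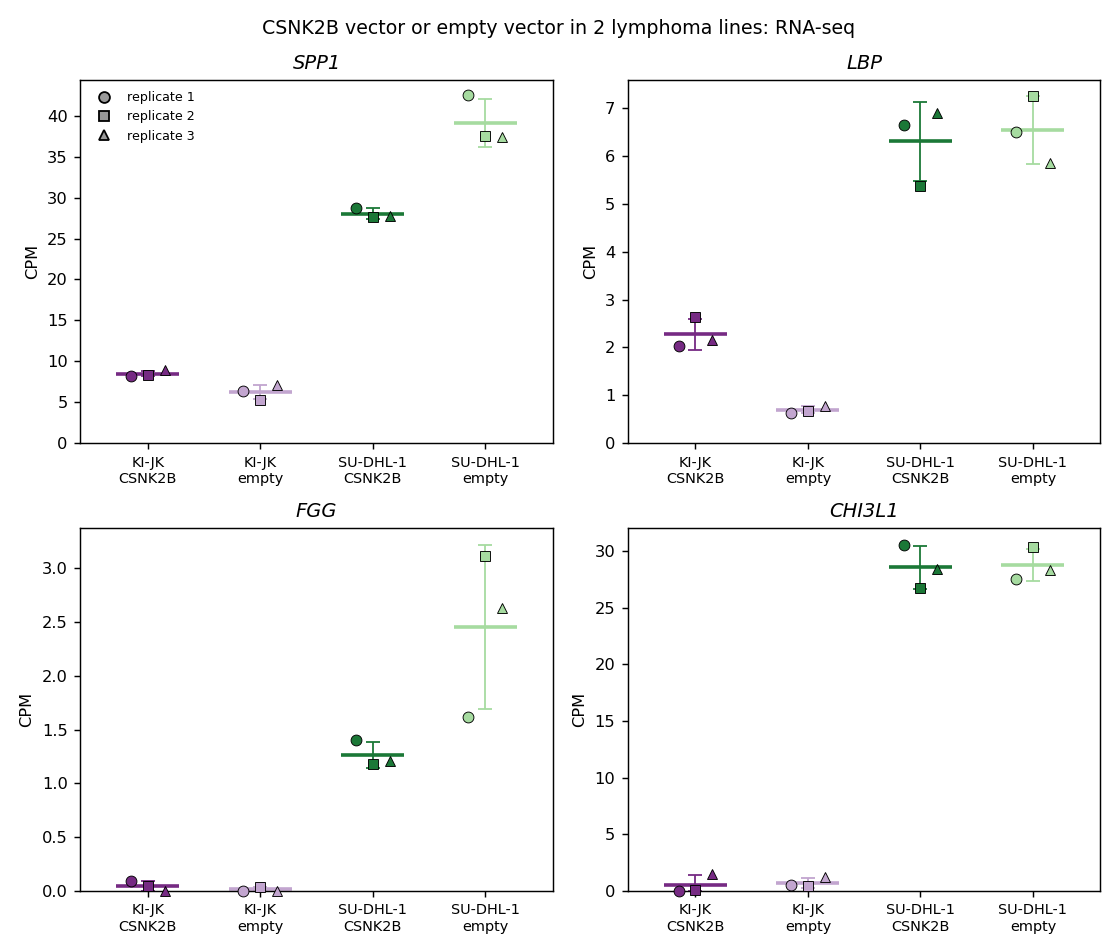
RNA-seq CPM (linear axes from 0) of the 4 genes in KI-JK and SU-DHL-1 with the CSNK2B vector or the empty vector, with a symbol for each replicate, the mean and 1 SD drawn no lower than 0. SPP1 is higher with the vector in KI-JK (8.23 to 8.88 against 5.31 to 7.09 CPM) and lower with it in SU-DHL-1 (27.6 to 28.8 against 37.4 to 42.6 CPM), and LBP is higher with it in KI-JK.

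**Figure D5:**
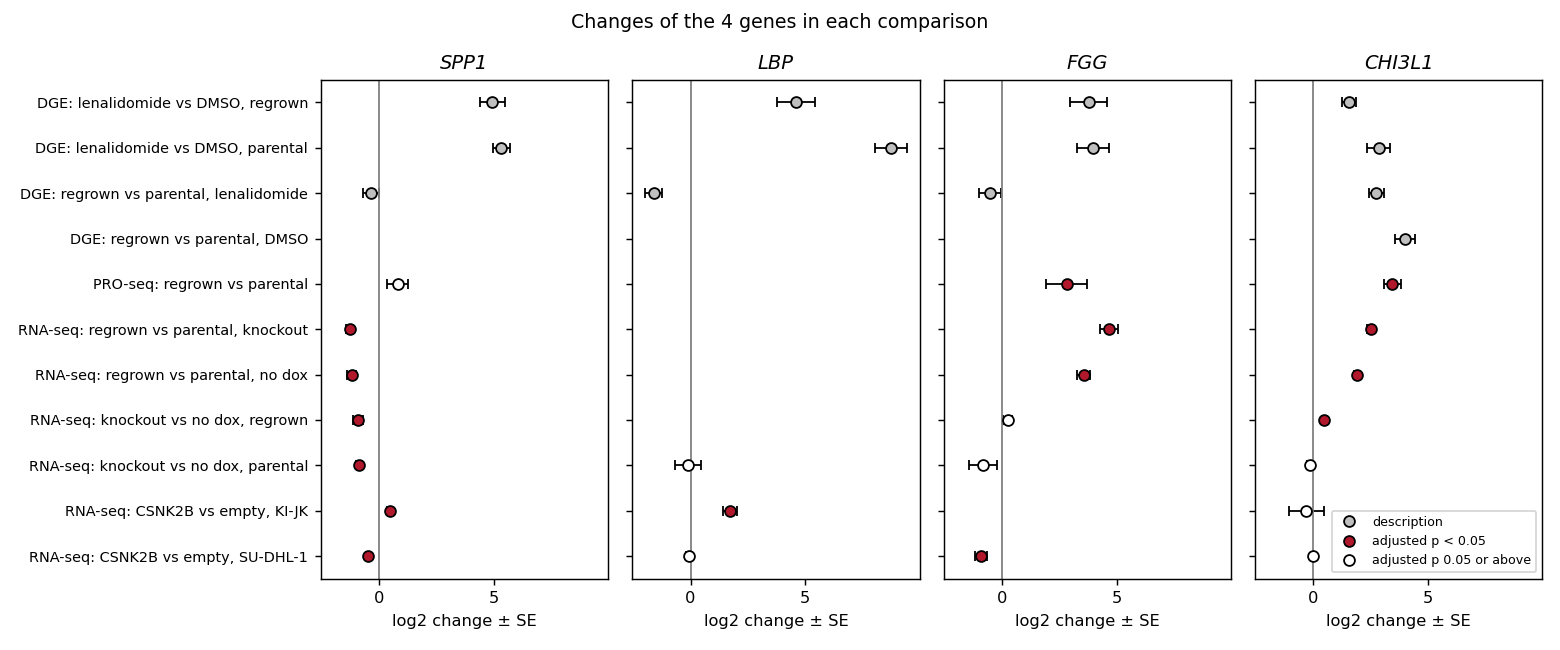
Log2 change ± SE of the 4 genes in 11 comparisons, in edgeR fits over all genes. Grey points are the DGE values, which are a description, red points have an adjusted p under 0.05, white points do not, and a missing point was not fitted. SPP1 is positive under lenalidomide and with CSNK2B in KI-JK and negative in 5 RNA-seq comparisons of SU-DHL-1, whereas CHI3L1 and FGG are positive in regrown against parental cells in PRO-seq and RNA-seq.

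FGB, the beta chain of fibrinogen, had 164, 196 and 166 CPM under lenalidomide and 198, 119 and 136 CPM under DMSO in regrown cells. In parental cells it had 220, 222 and 96.2 CPM against 175, 135 and 113 CPM, so its groups overlapped in both backgrounds. The parental overlap came from lenalidomide replicate 3 alone, the smallest library, and the other replicates lay above every DMSO library. The parental log2 difference was 0.61 ± 0.25 (SE) and was not called. FGA, the alpha chain, had 0, 7.55 and 0 CPM under lenalidomide in regrown cells with no DMSO count, and 32.8, 15.2 and 24.1 against 5.74, 0 and 0 CPM in parental cells, on 18 counts against 2. In RNA-seq without doxycycline FGB was 118 ± 10.7 CPM in regrown and 116 ± 4.45 CPM in parental cells, and its PRO-seq difference was 0.83 ± 0.32 (adjusted p = 0.075). In SU-DHL-1 FGB rose with the CSNK2B vector (114 ± 2.86 against 95.5 ± 2.53 CPM, log2 0.25 ± 0.04, adjusted p = 3.12e-04). The FGG value there was negative, but most fits leaving out 1 library lost its call.

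Of 15 other fibrinogen and clot genes, 2 of 3 tested were called higher under lenalidomide in parental cells, beside 0.673% of all genes. They were PLAUR, the urokinase receptor, and TGM2, a transglutaminase that crosslinks extracellular proteins. In regrown cells PLAUR was called of 2 tested, beside 0.23% of all genes called, and TGM2 was not tested. Under lenalidomide PLAUR was 523 ± 320 CPM against 78.4 ± 29.7 CPM under DMSO in regrown cells, and 862 ± 89.2 against 286 ± 18.7 CPM in parental cells. TGM2 was 68.8 ± 42.5 CPM under lenalidomide and 3.69 ± 4.26 CPM under DMSO in regrown cells, and 117 ± 44.4 against 10.7 ± 4.43 CPM in parental cells. In regrown against parental cells without doxycycline PLAUR fell by 1.62 on the log2 scale (SE 0.11, adjusted p = 8.23e-08), the 1 call among 4 clot genes tested, beside 21.1% of all genes lower. With the CSNK2B vector both genes rose in KI-JK, by 0.31 ± 0.04 (adjusted p = 8.46e-07) for PLAUR and 0.67 ± 0.21 (0.0183) for TGM2. In SU-DHL-1 both fell, with -0.51 ± 0.04 for PLAUR (adjusted p = 5.30e-10) and -0.71 ± 0.06 for TGM2 (adjusted p = 1.87e-08). The differences between the lines were 0.83 ± 0.05 for PLAUR (adjusted p = 2.03e-12) and 1.38 ± 0.19 for TGM2 (adjusted p = 4.65e-06). With the knockout in regrown cells TGM2 fell (-1.38 ± 0.31, adjusted p = 0.00493) and PLAUR rose (0.50 ± 0.12, adjusted p = 0.00662).

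Of 22 other acute phase genes, between 2 and 4 had enough counts for a test in any comparison. None was called under lenalidomide, beside 0.845% of all genes in parental and 0.23% in regrown cells, so nothing is read from it. SERPINA1, the antitrypsin gene, was the abundant one: it rose in regrown against parental cells without doxycycline by 0.74 ± 0.09 (adjusted p = 1.91e-05), the 1 call of 2 tested, beside 22.6% of all genes higher. It fell with the knockout in regrown cells (-0.41 ± 0.08, adjusted p = 0.00264). With the CSNK2B vector it fell in KI-JK (-0.11 ± 0.03, adjusted p = 0.00696) and rose in SU-DHL-1 (0.18 ± 0.03, adjusted p = 9.27e-04).

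Of 18 genes of the interleukin-6 and STAT3 pathway, which as a pathway raises FGG and LBP in liver, none was called under lenalidomide. In regrown cells 10 were tested, beside 0.23% of all genes called, and in parental cells 11, beside 0.845%. At such shares nothing is read from the lack of calls. In regrown against parental cells without doxycycline 3 of 14 rose and 6 fell, beside 22.6% and 21.1% of all genes, with a list median of -0.16 and a median over all genes of -0.003. OSM, a cytokine of the interleukin-6 family, fell (-1.50 ± 0.17, adjusted p = 6.45e-06), as did CEBPB, a transcription factor of the acute phase response (-0.66 ± 0.10, adjusted p = 8.43e-05), while JAK1, a kinase that associates with cytokine receptors, rose (0.46 ± 0.09, adjusted p = 0.00111). In PRO-seq 1 of 15 rose and 5 fell, beside 14% and 16.2% of all genes, the rise being IL6 itself (3.56 against 0.817 CPM, 2.11 ± 0.32, adjusted p = 7.70e-04). With the knockout in regrown cells 5 of 14 rose and 2 fell, beside 16.3% and 15.7% of all genes, among them OSM up by 1.03 ± 0.15 (adjusted p = 6.84e-04) and STAT3 down (-0.37 ± 0.07, adjusted p = 0.00277). With the CSNK2B vector 0 of 16 rose and 7 fell in KI-JK, beside 18.4% and 17.3% of all genes, led by IL6R (-0.47 ± 0.04, adjusted p = 1.69e-08). In SU-DHL-1 1 of 14 rose and 0 fell, beside 3.39% and 3.34% of all genes.

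Of 37 secreted cytokines and chemokines, 6 of the 9 tested fell in regrown against parental cells without doxycycline and none rose (list median -1.08), beside 21.1% and 22.6% of all genes. IL10, an anti-inflammatory cytokine, fell (-1.37 ± 0.11, adjusted p = 3.10e-07), and so did CSF1, the macrophage growth factor (-4.76 ± 0.49, adjusted p = 3.21e-06). Under lenalidomide IL10 was 62.1 ± 45.5 CPM against 190 ± 123 CPM under DMSO in regrown cells, and 23.3 ± 21.7 against 300 ± 28.9 CPM in parental cells. It was the 1 cytokine called in parental cells among 5, beside 0.845% of all genes called. In PRO-seq 3 of 13 rose and 4 fell, beside 14% and 16.2% of all genes, with CCL20, a chemokine, up by 1.92 ± 0.18 (adjusted p = 4.34e-05). With the knockout in regrown cells 5 of 8 rose and 1 fell, beside 16.3% and 15.7% of all genes. The fit with the length score called no gene there, but it cannot tell score and group apart.

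Genes for the partners of the 4 proteins moved in both directions, and their counts in regrown against parental cells stand beside 22.6% of all genes higher and 21.1% lower without doxycycline, and 14% and 16.2% in PRO-seq. Of 13 osteopontin receptor and processing genes, 2 of 5 rose and 1 fell in regrown against parental cells without doxycycline: CD44 by 0.33 ± 0.10 (adjusted p = 0.0177), the integrin ITGB5 by 0.71 ± 0.12 (3.41e-04), and ITGA5 by -1.90 ± 0.32 (2.85e-04). In PRO-seq 1 of 7 rose, CD44 by 0.78 ± 0.16 (adjusted p = 0.0043), and 3 integrin genes fell. Of 13 genes listed for lipopolysaccharide recognition, 5 of 9 tested rose in RNA-seq (TLR1, TLR6, MYD88, TIRAP and IRAK1) and 1 fell (TICAM1). CD14 and TLR4, to which LBP hands lipopolysaccharide, were not among the genes tested, nor were TLR2 and BPI. The adaptor TIRAP was 3.97 CPM in regrown and 0.276 CPM in parental cells (3.92 ± 0.45, adjusted p = 8.88e-06). The toll-like receptor gene TLR6 rose by 1.33 ± 0.12 (1.27e-06). In PRO-seq 2 of 9 rose and 0 fell: LY96 by 0.71 ± 0.20 (adjusted p = 0.0208) and TIRAP by 3.14 ± 0.34 (8.20e-05). TLR1, TLR6, MYD88 and IRAK1 were not called there. Of 7 fibrinogen receptor genes 1 of 4 rose and 2 fell, among them ITGAX by -1.36 ± 0.23 (adjusted p = 2.77e-04). Of the 8 other chitinase family and receptor genes, 0 of 5 was called there, and none of the 4 other SIBLING genes, the family of SPP1, had enough counts in any comparison. The list of 14 matricellular genes also held PLXNA1, a plexin gene that is not matricellular and entered through a shared older symbol. Of its genes 2 of 5 tested rose and 1 fell. The rises were SRGN, a proteoglycan core protein (0.80 ± 0.09, adjusted p = 8.24e-06), and PLXNA1 (0.74 ± 0.09, adjusted p = 1.80e-05). The fall was TNC, tenascin C (-1.72 ± 0.40, adjusted p = 0.00283).

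Under lenalidomide in parental cells the 10 nearest tested genes had a median log2 difference of 0.15 (SPP1), 0.05 (LBP), 0.02 (FGG) and 0.22 (CHI3L1). Of these neighbours 1 was called, TGM2 near LBP, where 0.845% of all genes were called. In regrown cells under the drug the medians were -0.38, -0.09, 0.02 and -0.22, in the same order of genes. No neighbour was called there, beside 0.23% of all genes. In PRO-seq the medians for regrown against parental cells were 0.02, -0.06, 0.19 and -0.06. Of 10 neighbours each, 1 rose and 2 fell for SPP1, 0 and 2 for LBP, 1 and 0 for FGG, and 1 and 1 for CHI3L1. Of all genes, 14% were called higher and 16.2% lower, so nothing local is read from these calls. HERC6 rose near SPP1 (2.39) and MND1 near FGG (0.65), while AFF1 (-0.42) and HSD17B11 (-0.74) fell near SPP1, SNHG11 (-1.49) and PPP1R16B (-1.05) near LBP, and ADORA1 (-1.19) near CHI3L1. The neighbour of CHI3L1 that rose was MYBPH, a muscle myosin-binding protein gene, with 5.11, 1.82 and 1.27 CPM in regrown and 0.103, 0.492 and 0.459 CPM in parental cells (log2 2.94). MYBPH had 4 RNA-seq counts in regrown and 0 in parental cells without doxycycline.

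Over the 12 DGE libraries SPP1, LBP and FGG resembled each other more than CHI3L1. Pearson's r of log2(CPM + 1) was 0.963 between SPP1 and LBP, 0.889 between LBP and FGG and 0.812 between SPP1 and FGG, and 0.485, 0.504 and 0.425 between CHI3L1 and SPP1, LBP and FGG. These libraries share the drug and pool groups, so the values describe those groups. Among 6610 genes, the most alike apart from the 4 were FCRLB (0.904), NPC2 (0.893), NNMT (0.884) and IFITM2 (0.881) for SPP1. For LBP they were FCRLB (0.897), NRP1 (0.896) and TIPARP (0.849), for FGG TGM2 (0.861), ATP2B4 (0.841) and FCRLB (0.818), and for CHI3L1 NLRP7 (0.876), CRNDE (0.863), RGS16 (0.863), NEK4 (0.858) and MANEAL (0.857). Over the 12 libraries of the ZFP91 table the pairing was another one: FGG and CHI3L1 had 0.969 and SPP1 and LBP 0.745, while SPP1 had -0.785 with FGG and -0.817 with CHI3L1, and LBP -0.838 and -0.904. Among 11307 genes, CHI3L1 was most like CLIC1 (0.997), ATF6B (0.997), FLOT1, POLR2C and PSME3IP1 (0.995 each), and FGG most like PCLAF (0.991), SLC4A10 (0.988), PGBD1 (0.987), SRGN and TFRC (0.986 each). SPP1 was most like TNFRSF9 (0.974), RAB20 (0.972), DCAKD (0.970), STC1 (0.968) and KLHL6 (0.965). These libraries fall into 2 backgrounds, regrown and parental, and the part of that difference in these values was not tested.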

How the data were processed

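Counts per gene were deposited by the authors for 42 libraries in 5 tables (DGE, PRO-seq and 3 RNA-seq tables), and all their columns were mapped to samples by name. The submitters' processing notes name featureCounts 1.6.2, Bowtie 1.2.2, cutadapt 1.14 and the hg38 build for PRO-seq, Bowtie2 2.2.3 and hg19 for DGE, and STAR 2.6.1d and hg38 for RNA-seq, without their roles. Collapsing of molecular identifiers in DGE, and the counter and strand setting of RNA-seq, are not given in the sources used here, so DGE counts may hold PCR copies and reads of overlapping antisense genes may be included.

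Counts were fitted as deposited with edgeR 4.0.16 (filterByExpr, TMM scaling, quasi-likelihood test) on limma 3.58.1 in R 4.3.3, with the 2 groups compared or, for a difference of responses, the 4 groups. P-values were Benjamini-Hochberg adjusted over all genes tested in a comparison, and called means an adjusted p under 0.05. In all, 14 comparisons were made, of which 9 give tests of the 4 genes and the 5 in DGE are a description. Printed CPM are counts over the column total. The smallest DGE library holds 41571 counts, so 1 count there is a large step in CPM. Replicates of every group differed by more than sampling noise (smallest chi-square per degree of freedom 1.34, parental DMSO replicates 1 and 2), and each was kept as 1 sample.

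The members and the gene lists were chosen with earlier results of these data known. Named genes are the 4 members, up to 4 called genes of each list by p, the 5 most alike per member among genes averaging at least 20 CPM (DGE) or 1 CPM (RNA-seq), 5 neighbours on each side and check genes. The length score and the difference between the lines were added after seeing the data. Genes were placed by RefSeq GRCh38, and in DGE 14046 of 17463 gene names matched. Regrown numbers name pools, per the labels, and so pair samples across DMSO, lenalidomide, knockout and control, while parental and vector replicates share only a number. The fits were tested on simulated data. Alternatives were other scalings, filters and tools (DESeq2 1.42.0), a replicate block, all groups in 1 fit and leaving out each library.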

Additional observations from a re-analysis of the deposited data

Results flagged for a closer look

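The response of SPP1 to the CSNK2B vector differed between KI-JK and SU-DHL-1 by 0.97 ± 0.13 on the log2 scale (adjusted p = 3.28e-06), because SPP1 was higher with the vector in KI-JK (8.49 ± 0.35 against 6.25 ± 0.89 CPM) and lower with it in SU-DHL-1 (28.1 ± 0.63 against 39.2 ± 2.95 CPM; SD, n = 3 each). The difference of the LBP response was 1.79 ± 0.29 (adjusted p = 4.17e-05), with 2.27 ± 0.32 against 0.694 ± 0.075 CPM in KI-JK and 6.31 ± 0.82 against 6.55 ± 0.70 CPM in SU-DHL-1. Both were picked out because the test of the difference between the lines passed its threshold.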

How the results depend on the processing

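Of the alternatives other than leaving out a library, 197 values of tested genes kept their direction and their side of the threshold, 5 fell short of it, 5 newly passed it and 2 turned round. SPP1 with the knockout in parental cells was -0.84 (adjusted p = 0.0552) with all groups in 1 fit. With the length score as covariate, the knockout in regrown cells gave -0.47 for SPP1, 0.0385 for CHI3L1 and -0.32 for FGG, which turned round, and called 0 genes. In that fit score and group cannot be told apart. In the difference of the knockout response, SPP1 was 0.0186 with library size only, and CHI3L1 passed with library size only (0.70, adjusted p = 0.0357), no filter (0.66, 3.56e-04), 1 CPM in 3 libraries (0.64, 0.0468), DESeq2 (0.60, 0.0237) and the replicate block (0.64, 0.0287), but not with DESeq2 size factors (0.60, 0.0549) or the length score, which lowered it most (0.26, 0.415). FGG with the CSNK2B vector in SU-DHL-1 was -0.91 with library size only and -0.94 in DESeq2. LBP under lenalidomide in parental cells was 8.40 in DESeq2. The causes were not tested.

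Counts of called genes moved by over 1.5 times as follows. With the knockout in parental cells 57 became 231 with no filter, 198 in DESeq2 and 1247 with the length score. For the difference of the knockout response 1399 became 2333, 2410, 2257 with the replicate block and 84 with the length score, and in regrown against parental cells without doxycycline 5850 became 3115 with that score. In DGE, 49 in parental cells became 31 with 1 CPM in 3 libraries, 26 in DESeq2 and 28 with all groups in 1 fit, 13 in regrown cells became 20 with no filter, and 0 for the difference became 1 with the replicate block. Between backgrounds, 369 under DMSO became 240 in DESeq2, and 129 under lenalidomide became 59 in DESeq2 and 244 with all groups in 1 fit. Scaling by library size only changed the higher and lower calls to 2415 and 3546 from 3023 and 2827 in regrown against parental cells without doxycycline (median of all genes -0.10), to 977 and 463 from 638 and 761 for the knockout response, and to 1287 and 1611 from 1671 and 1313 between the lines. The replicate block changed no other call of the 4 genes.

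Leaving out 1 library at a time, where a lone pair is assumed to vary like the other group, gave these ranges. In PRO-seq SPP1 ran from 0.37 to 1.20, FGG from 1.54 to 3.39 and the calls from 3245 to 5322. With the knockout in parental cells SPP1 ran from -0.94 to -0.78, LBP from -0.55 to 0.32 and the calls from 0 to 110, and in regrown cells the calls from 2410 to 5519. For the knockout response SPP1 ran from -0.24 to 0.063, LBP from -2.31 to 0.079, FGG from 0.66 to 1.91, CHI3L1 from 0.50 to 0.79 and the calls from 0 to 3355. With the vector in KI-JK SPP1 ran from 0.36 to 0.57 and CHI3L1 from -4.71 to 0.32, and in SU-DHL-1 LBP from -0.13 to 0.050, FGG from -1.18 to -0.72, CHI3L1 from -0.060 to 0.036 and the calls from 582 to 902. Between the lines CHI3L1 ran from -4.67 to 0.42. Under lenalidomide in parental cells LBP ran from 8.57 to 8.96, FGG from 3.38 to 7.26 (the highest without DMSO replicate 3) and the calls from 25 to 105 (the highest without lenalidomide replicate 3). In regrown cells SPP1 ran from 4.14 to 6.13, LBP from 4.07 to 6.86 and the calls from 7 to 13. For the drug response SPP1 ran from -1.17 to 0.87, LBP from -4.53 to -1.59, FGG from -3.43 to 0.63 and the calls from 0 to 1. Between backgrounds the calls ran from 222 to 512 under DMSO and from 23 to 149 under lenalidomide, where SPP1 ran from -1.13 to -0.0091. Depth limits LBP and FGG most: in DGE they rest on 0 to 4 counts per DMSO group.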
